A study of Mus musculus with 2 samples.

Results

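The 32 genes described here carry glucose through glycolysis to lactate or belong to the cell's response to low oxygen. They were chosen by symbol from the gene list of the deposited matrices, as 2 transporters, 15 glycolytic enzymes, 3 genes of lactate and pyruvate fate, 7 genes induced by hypoxia, 4 genes of the oxygen-sensing system and Epo. They correspond to 33 of 53698 gene entries, since Aldoa has 2 entries, 1 of which held 1 UMI in all fibroblast-like cells. The cells came from kidneys of FVBN mice, dissociated with Liberase TL and DNase, and were labelled as positive for the PDGF receptors alpha and beta, which mark fibroblasts, pericytes and related stromal cells. Each group was 1 droplet-based 3′ library: sham, or UUO at 10 days (unilateral ureteral obstruction, an operation that leads to kidney fibrosis). The number, age and sex of the animals behind each library are not given in the sources used here. Since each group is a single library, no test was possible, and the intervals describe counting error alone.

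Glycolysis splits glucose into pyruvate, first spending ATP (the preparatory steps, from hexokinase to triosephosphate isomerase) and then recovering it (the payoff steps, from Gapdh to pyruvate kinase). When oxygen is short, the hypoxia-inducible factors (HIF), made of HIF-1 alpha (Hif1a) or HIF-2 alpha (Epas1) with their partner Arnt, escape hydroxylation by the Egln enzymes and degradation through Vhl, and raise the transcription of glycolytic enzymes, the glucose transporter Slc2a1, Vegfa and Bnip3. In the kidney the proximal tubule relies mainly on oxidation and can make glucose, distal segments use glycolysis more, and stromal cells near the tubules are the source of erythropoietin.

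HIF binds DNA around the letters ACGTG, so the 250 bases before the annotated start sites were read for that motif on both strands (ACGTG or CACGT; the overlapping form CACGTG counts as 2 matches). RefSeq promoters on GRCm38.p6 were found for 30 of the 32 genes, with 43 start sites; Epas1 and Bnip3l had no entry. The motif was present in 16 of 30 genes (53.3%), beside 18.5% of all 27025 genes. By promoter it was present in 18 of 43 (41.9%), beside 16.6% of all 32851. Median GC content was 61.6% in the members' promoters and 52.4% in all of them, and the part of base composition in the motif share was not tested. All 6 hypoxia-induced genes with a promoter and both transporters held the motif, against 3 of 9 preparatory and 3 of 6 payoff enzymes. Vegfa is counted only through a start site inside the gene (described below). Shown here are the lactate dehydrogenase pair, of which Ldhb differed 2-fold between the libraries, the other members that did (Slc16a3 and Vegfa), Hk2, which had the widest range over stromal clusters, and Egln3, which was high in endothelial-like cells. Each line runs 5′ to 3′ on the gene's strand and ends at the base before the start site; capitals mark the motif.
Ldha: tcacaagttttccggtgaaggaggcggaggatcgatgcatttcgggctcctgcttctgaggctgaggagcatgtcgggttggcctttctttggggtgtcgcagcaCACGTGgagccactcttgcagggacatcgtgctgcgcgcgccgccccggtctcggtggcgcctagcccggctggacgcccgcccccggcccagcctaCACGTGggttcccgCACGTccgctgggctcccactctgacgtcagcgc
Ldhb: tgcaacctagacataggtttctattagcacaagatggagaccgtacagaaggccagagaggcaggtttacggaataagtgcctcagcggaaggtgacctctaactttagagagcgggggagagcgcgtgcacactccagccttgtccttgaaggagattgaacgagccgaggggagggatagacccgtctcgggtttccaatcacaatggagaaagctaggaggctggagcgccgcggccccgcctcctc
Slc16a3: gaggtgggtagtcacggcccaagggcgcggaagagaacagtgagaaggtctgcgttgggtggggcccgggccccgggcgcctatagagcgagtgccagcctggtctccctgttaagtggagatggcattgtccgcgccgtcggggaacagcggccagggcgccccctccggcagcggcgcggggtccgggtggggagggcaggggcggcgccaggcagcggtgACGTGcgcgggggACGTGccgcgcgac
Vegfa: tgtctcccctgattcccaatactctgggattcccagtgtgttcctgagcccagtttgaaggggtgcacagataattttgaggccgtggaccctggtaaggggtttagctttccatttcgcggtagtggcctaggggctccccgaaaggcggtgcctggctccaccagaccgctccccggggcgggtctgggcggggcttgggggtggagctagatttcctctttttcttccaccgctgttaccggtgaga
Hk2: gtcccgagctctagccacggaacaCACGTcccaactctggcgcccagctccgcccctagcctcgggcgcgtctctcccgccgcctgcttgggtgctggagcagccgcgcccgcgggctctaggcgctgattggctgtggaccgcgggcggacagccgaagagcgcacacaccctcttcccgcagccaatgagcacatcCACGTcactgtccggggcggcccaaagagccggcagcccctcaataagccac
Egln3: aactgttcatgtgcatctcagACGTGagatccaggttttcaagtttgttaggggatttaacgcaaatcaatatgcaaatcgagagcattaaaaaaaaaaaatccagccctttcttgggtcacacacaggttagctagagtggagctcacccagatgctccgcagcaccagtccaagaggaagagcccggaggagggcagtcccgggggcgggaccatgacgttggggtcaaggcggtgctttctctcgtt
These windows lie at chr7:46845554-46845803 (Ldha, plus strand), chr6:142507958-142508207 (Ldhb, minus strand), chr11:120948817-120949066 (Slc16a3, plus strand), chr17:46032378-46032627 (Vegfa, minus strand), chr6:82774455-82774704 (Hk2, minus strand) and chr12:54203875-54204124 (Egln3, minus strand). Ldha held 5 matches, as 2 CACGTG pairs and a single CACGT 34 bases before the start, and Slc16a3 and Hk2 held 2 each. Egln3 held 1. No match stood in the windows of Ldhb and Vegfa shown, and the match counted for Vegfa lies in its other promoter, 211 bases before that start site. That other window (chr17:46025164-46025413) lies inside the Vegfa gene, with 218 of its 250 bases in annotated exons. A match is a run of letters and was not measured as a binding site.

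The 2 libraries differed in size and in cell makeup, and several fibrosis genes ran against the labels. After filtering, 9748 cells labelled sham and 1043 labelled UUO were kept, and 11 of these barcodes occurred in both libraries. Fibroblast-like cells, defined by collagen and other matrix markers, numbered 7703 (median 8053 UMIs) and 591 (median 5527 UMIs). Their Pdgfra level was 249.7 and 260.4 counts of UMIs scaled to a common total (CPM, the unit of all levels here), and Pdgfrb was 300.2 and 157 CPM. Several transcripts known to rise in fibrosis were lower in the library labelled UUO, among them Acta2 (1559 and 328 CPM), Timp1 (689 and 72.3 CPM), Fn1 (848 and 311 CPM) and Spp1 (11366 and 189 CPM), while Postn was higher (84.8 and 168 CPM). The libraries are therefore named by their labels throughout. In each library some fibroblast-like cells carried Xist UMIs and no Y-linked UMIs (4447 and 155) and others the reverse (1276 and 177), so each library held both kinds of cell, in different proportions.

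In fibroblast-like cells the glycolytic chain was spread around no common shift: 5 of 6 payoff enzymes and Ldha were lower in the library labelled UUO, and Aldoa and Hk2 were higher. With 5 CPM added the differences furthest from 0 were in Vegfa, Ldhb and Slc16a3, while by the plain ratio Pfkp (2.26) lay above Ldhb (2.16). Of the 32 genes, 26 reached 10 CPM in either library. After adding 5 CPM, Ldhb and Vegfa, 2 of the 26, exceeded the library labelled sham by 2-fold or more, beside 12.3% of the 9557 genes measured at that level. Slc16a3 alone was at least 2-fold lower, beside 5.09% of all genes. At 1.5-fold, 3 were higher, beside 19.3%, and 8 lower, beside 13%. At 2-fold the members' counts were no higher than the background in either direction. Values count 3′ ends of transcripts and were not scaled by length, so levels of different genes are set side by side only as shares of UMIs. The members' median log2 ratio was -0.23, with 16 of 26 below 0, against a median of -0.04 over all genes.

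**Figure D1:**
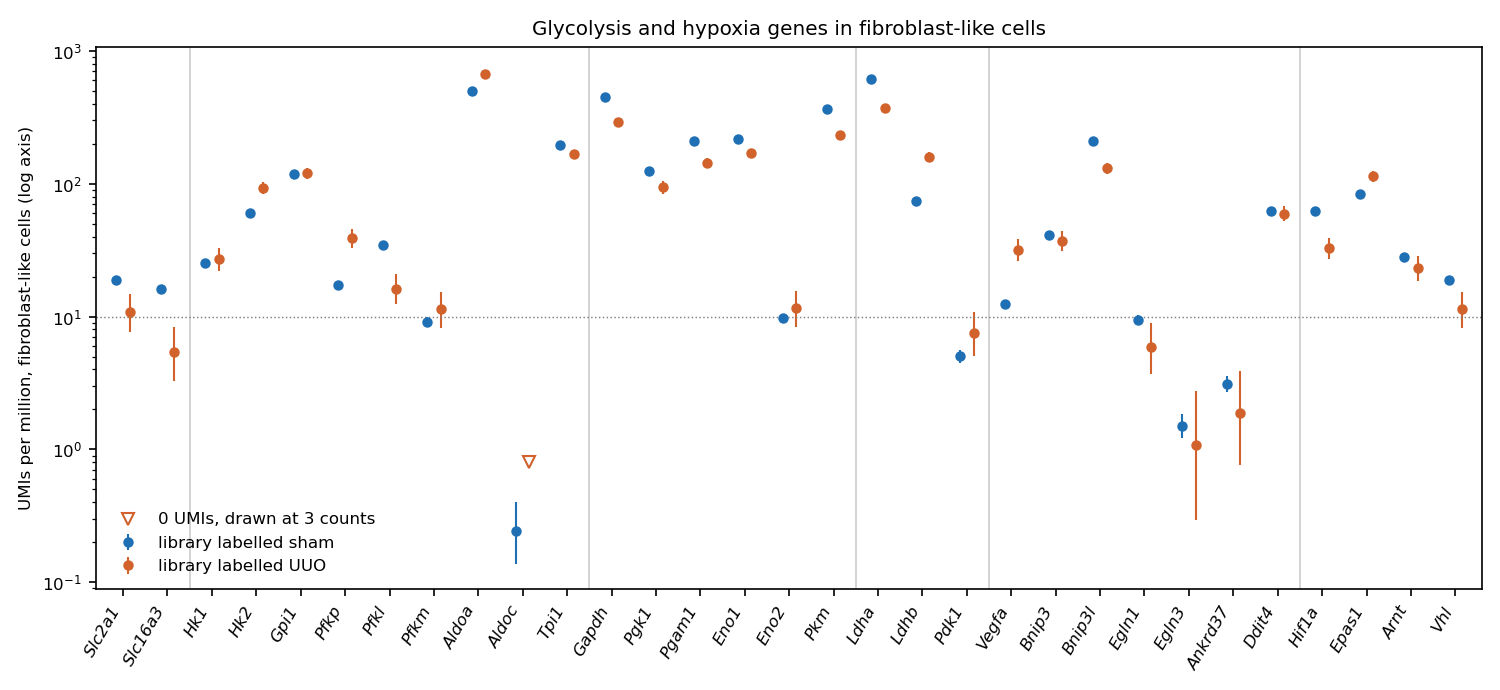
Level of each gene in fibroblast-like cells of the library labelled sham (7703 cells, blue) and UUO (591 cells, orange), in CPM on a log axis, with 95% Poisson intervals; grey lines separate the roles and the dotted line is 10 CPM. Ldha fell from 614 to 371 and Ldhb rose from 74.3 to 160, while Hk1, Gpi1 and Ddit4 had overlapping intervals.

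Both transporters were lower in the library labelled UUO. Slc2a1, which brings glucose into the cell, was at 18.8 CPM (95% interval 17.7 to 19.9) in the library labelled sham and 10.8 CPM (7.71 to 14.7) in that labelled UUO, a ratio of 0.574 (0.408 to 0.787). Slc16a3, the carrier that exports lactate, was at 16.3 CPM (15.3 to 17.3) and 5.4 CPM (3.3 to 8.33), a ratio of 0.332 (0.202 to 0.516). The second value rests on 20 UMIs. Slc16a3 stayed past 2-fold in 14 of 18 alternative settings, and without stromal cluster 2 of the library labelled sham (described with the clusters) no member was 2-fold lower.

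Among the preparatory enzymes, 6 of 8 genes at 10 CPM were above 0 on the log2 scale and none was 2-fold apart. Hk2, the inducible hexokinase that commits glucose to the pathway, was at 60.6 CPM and 92.5 CPM (ratio 1.53, 1.36 to 1.71). Of its 343 UMIs labelled UUO, 139 came from 45 cells, stromal cluster 6 (described with the clusters). The Hk2 difference between libraries thus rests largely on that cluster and was not shown for fibroblast-like cells at large. The housekeeping Hk1 was level at 25.4 and 27 CPM (ratio 1.06, 0.859 to 1.3). Hk1 and Gpi1 kept their sign in 16 and 14 of 18 alternative settings. Aldoa, the aldolase of muscle and most other tissues, was at 496 and 670 CPM (ratio 1.35, 1.3 to 1.41). Its brain-type relative Aldoc had 15 UMIs labelled sham and 0 labelled UUO. Gpi1, the isomerase after hexokinase, was level at 118.5 and 120.2 CPM, and Tpi1 was at 196 and 166 CPM (ratio 0.845, 0.778 to 0.916).

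The 3 phosphofructokinase genes, whose products form the pathway's main control step, differed in opposite directions. Pfkl, the liver-type subunit, was at 34.8 and 16.2 CPM (ratio 0.466, 0.354 to 0.602), and Pfkp, the platelet-type subunit, at 17.2 and 38.9 CPM (ratio 2.26, 1.89 to 2.69). Both lay just inside the 2-fold line once 5 CPM were added (log2 -0.91 and 0.98). Pfkl therefore made up 56.9% of the 3 genes' UMIs in the library labelled sham (55.3% to 58.5%) and 24.4% in that labelled UUO (19.2% to 30.3%), and Pfkp 28.1% and 58.5%. The shares varied by stromal cluster (described below). Cluster 1 had 46.6% Pfkl and 33.7% Pfkp labelled sham, and 46.7% and 34.7% labelled UUO, the latter on 75 UMIs. In the other clusters of at least 40 cells, Pfkp made up 53.3% to 90.5% labelled UUO and 19.9% to 45.2% labelled sham. The ends labelled UUO rested on 15 UMIs (cluster 3, interval 26.6% to 78.7%) and 21 UMIs (cluster 5, 69.6% to 98.8%). The interval of cluster 3 overlapped that of the highest share labelled sham (cluster 7, 33.5% to 57.3%). Pfkm, the muscle-type subunit, kept a like share of 15% and 17.1%. The sum of the 15 enzymes was 2334 CPM (2322 to 2346) and 2087 CPM (2041 to 2134).

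Of the 6 payoff enzymes, 5 were below 0, with a median log2 ratio of -0.46. Gapdh, which makes NADH in the first oxidation, was at 450.2 and 293 CPM (ratio 0.65, 0.611 to 0.691). Pkm, pyruvate kinase, was at 366 and 234 CPM (ratio 0.64, 0.598 to 0.685), and Pgam1, the phosphoglycerate mutase, at 208 and 142 CPM (ratio 0.685, 0.626 to 0.747). Pgk1 and Eno1 followed at 0.756 (0.677 to 0.842) and 0.779 (0.718 to 0.843). Eno2, the neuronal-type enolase, was low in both, at 9.69 and 11.6 CPM. Alevin's sharing of ambiguous reads made 8.6% of the Eno1 sum in the library labelled sham and 7.73% of the Gapdh sum in that labelled UUO non-whole, so these 2 levels are less certain than the others.

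Sequencing depth and mitochondrial share moved with some of these levels. Within the library labelled sham the sum of the 15 enzymes went from 1842 CPM in the quartile of cells with fewest UMIs to 2586 CPM in the deepest, and Gapdh from 208 to 549.8 CPM. Among cells of 4000 to 10000 UMIs, 3099 labelled sham and 241 labelled UUO, the sums were 2142 CPM (2123 to 2161) and 2030.3 CPM (1962 to 2101). These intervals did not overlap, but the sums lay closer than over all depths. In those cells the log2 ratio of Gapdh was -0.41, that of Pkm -0.38 and that of Ldha -0.62, each nearer 0 than over all depths. Between the deepest and the shallowest quartile labelled sham, 1 of 27 members (Gapdh) was at least 2-fold higher, beside 2.19% of all genes, and 1 (Hk2, at 52.4 against 144 CPM) lower, beside 6.69%. Labelled UUO, none of 25 was higher, beside 5.96%, and Hif1a, Epas1 and Pdk1 were lower, beside 11.6%. Between the quartiles of highest and lowest mitochondrial share, Hk2 labelled sham (136 against 50.7 CPM) was the 1 member higher, beside 5.19%, with none lower, beside 1.64%. Labelled UUO it was Epas1 (204 against 97 CPM), beside 3.86%, with none lower, beside 3.53%.

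The lactate dehydrogenase genes crossed. Ldha, whose subunit favours the making of lactate from pyruvate, was at 614 CPM (608 to 620.1) and 371 CPM (351 to 391), a ratio of 0.604 (0.572 to 0.637). Ldhb (ENSMUSG00000030246.11, GRCm38 chr6:142490249-142507957, minus strand), whose subunit favours the reverse reaction and is abundant in oxidative tissue, was at 74.3 CPM (72.1 to 76.5) and 160 CPM (147 to 173), a ratio of 2.16 (1.97 to 2.35). Ldhb made up 10.8% of the pair's UMIs in the library labelled sham (10.5% to 11.1%) and 30.1% in that labelled UUO (28.1% to 32.2%). Ldhb stayed past 2-fold in 12 of 18 alternative settings, with a lowest log2 ratio of 0.62. Pdk1, which switches off pyruvate dehydrogenase, stayed under 10 CPM at 5.05 and 7.55 CPM.

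RNA of proximal tubule cells moved with the Ldhb difference. The 9 proximal tubule markers summed to 16.9 CPM in fibroblast-like cells labelled sham and 817 CPM in those labelled UUO, where proximal tubule-like cells held 28876 CPM of them and 1714 CPM of Ldhb. All 9 markers were above 0 in both libraries. At the ratio seen in those cells, 48.5 of the 160 CPM of Ldhb went with the marker level, and 112 CPM were left, against 72.9 CPM left in the library labelled sham. With such shares taken from every gene, the log2 ratio of Ldhb was 0.62 and no longer past 2-fold, whereas Vegfa stayed at 1.06. The 49 fibroblast-like cells labelled UUO with no proximal tubule marker UMI had 221 CPM of Ldhb and the 6843 labelled sham 75.1 CPM. Endothelial-like cells, with 28.1 and 1106 CPM of the markers, also differed in Ldhb, at 83.6 and 277 CPM.

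**Figure D2:**
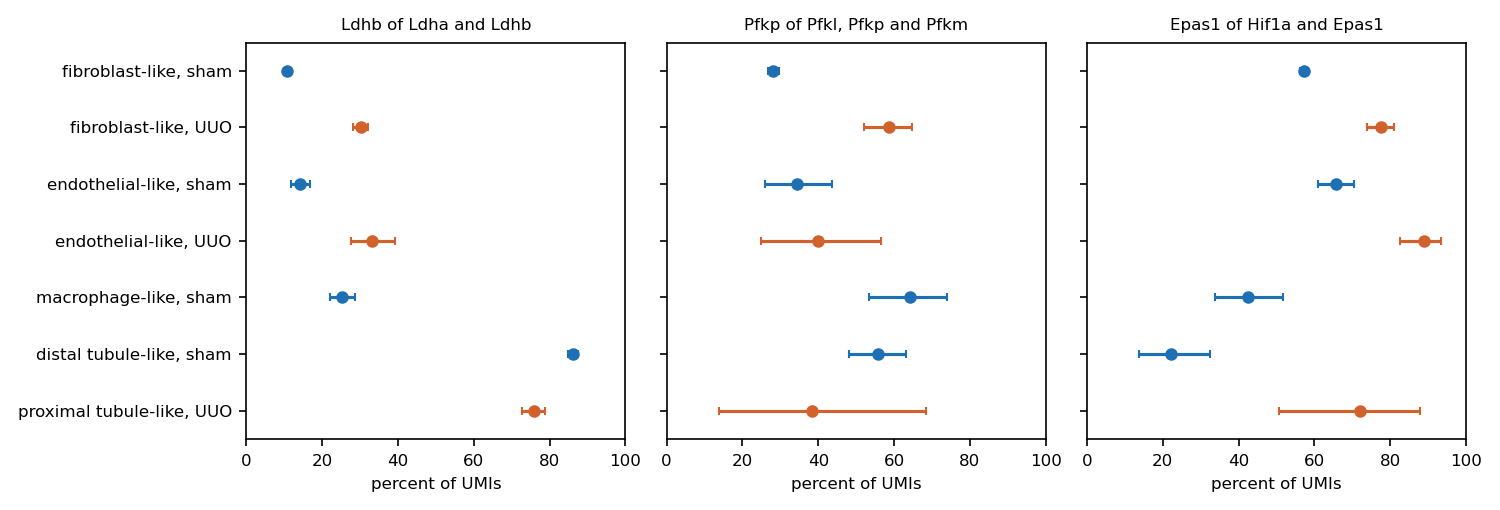
Percent of a gene pair's or trio's UMIs that came from Ldhb, Pfkp and Epas1 in each cell class of the libraries labelled sham (blue) and UUO (orange), with exact 95% binomial intervals. The Ldhb share ran from 10.8% in fibroblast-like cells labelled sham to 86.2% in distal tubule-like cells, and both the Pfkp and the Epas1 share were higher in fibroblast-like cells labelled UUO than in those labelled sham.

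Of the hypoxia-induced genes only Vegfa, the growth factor for endothelial cells, stood apart by 2-fold, and the others did not share its direction. Vegfa (ENSMUSG00000023951.17, GRCm38 chr17:46016993-46032369, minus strand) was at 12.4 CPM (11.5 to 13.3) in the library labelled sham and 31.8 CPM (26.4 to 38.1) in that labelled UUO, a ratio of 2.58 (2.1 to 3.13). It stayed past 2-fold in 16 of 18 alternative settings, and in cells with Xist UMIs and no Y-linked UMIs its log2 ratio was 0.99 and that of Ldhb 0.96, so that no member was 2-fold higher there. Bnip3l, a receptor for the removal of mitochondria, was at 209 and 130.2 CPM (ratio 0.623, 0.567 to 0.681), and its relative Bnip3 was level at 41.1 and 37.2 CPM. Ddit4, an inhibitor of mTORC1 signalling, was level at 62.1 and 59.6 CPM. The remaining 3 genes were under 10 CPM in both libraries: the oxygen sensor Egln1 at 9.46 and 5.94 CPM, Egln3 at 1.51 and 1.08 CPM, and Ankrd37 at 3.12 and 1.89 CPM. Reads of Ankrd37 may be hard to separate from Ufsp2 on the opposite strand, which was at 40.4 and 46.1 CPM.

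The 2 HIF alpha genes differed in opposite directions. Hif1a, expressed in most cell types, was at 62.7 CPM (60.8 to 64.7) and 32.6 CPM (27.1 to 39), a ratio of 0.52 (0.431 to 0.624). Epas1, known from endothelial and interstitial cells, was at 84 CPM (81.7 to 86.3) and 114 CPM (103 to 125), a ratio of 1.35 (1.22 to 1.49). Epas1 made up 57.2% of the pair's UMIs in the library labelled sham (56.2% to 58.3%) and 77.7% in that labelled UUO (73.9% to 81.1%). Arnt, the shared partner, was at 28.1 and 23.2 CPM (ratio 0.826, 0.657 to 1.03), and Vhl at 19 and 11.3 CPM (ratio 0.597, 0.428 to 0.813).

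Epo, the hormone gene of the kidney's oxygen response, had 0 UMIs in every barcode of both libraries. In fibroblast-like cells, 0 of 7703 cells allows a share of cells with a UMI of up to 0.0389% in the library labelled sham, and 0 of 591 up to 0.508% in that labelled UUO. These limits concern cells with a UMI, not cells that express the gene.

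Of a list of 60 other genes of glucose metabolism and hypoxia, 34 reached 10 CPM in fibroblast-like cells, 6 stood 2-fold or more above the level labelled sham, beside 12.3% of all genes, and 5 stood as far below, beside 5.09%. Adm, a vasodilator peptide gene induced by hypoxia, was at 36.9 and 484 CPM (ratio 13.1, 12.3 to 14). Bhlhe40 (374 and 46.4 CPM), Lox (254 and 61.2 CPM) and Slc16a1 (37.2 and 8.09 CPM), respectively a transcription factor, a collagen cross-linking enzyme and a lactate carrier, were the 3 lowest, so known HIF targets lay at both ends of the list. Fbp1, an enzyme of glucose synthesis in the proximal tubule, was at 3.12 and 34.5 CPM (ratio 11.1, 8.78 to 13.9). At the ratio seen in proximal tubule-like cells labelled UUO, the marker level went with 41 CPM of Fbp1, above what was measured.

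Cell classes were named from markers and compared with fibroblast-like cells of the same library. The tubule classes held most glycolytic enzyme RNA, and some isoform shares differed between classes. The 15 enzymes summed to 2723 CPM in endothelial-like cells labelled sham and 2580 CPM in those labelled UUO, 2335 CPM in macrophage-like cells labelled sham, 4785 CPM in distal tubule-like cells labelled sham and 5388 CPM in proximal tubule-like cells labelled UUO. These classes held 321, 66, 280, 90 and 69 cells. Macrophage-like cells labelled UUO (3), distal tubule-like cells labelled UUO (4) and proximal tubule-like cells labelled sham (17) were too few to compare.

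**Figure D3:**
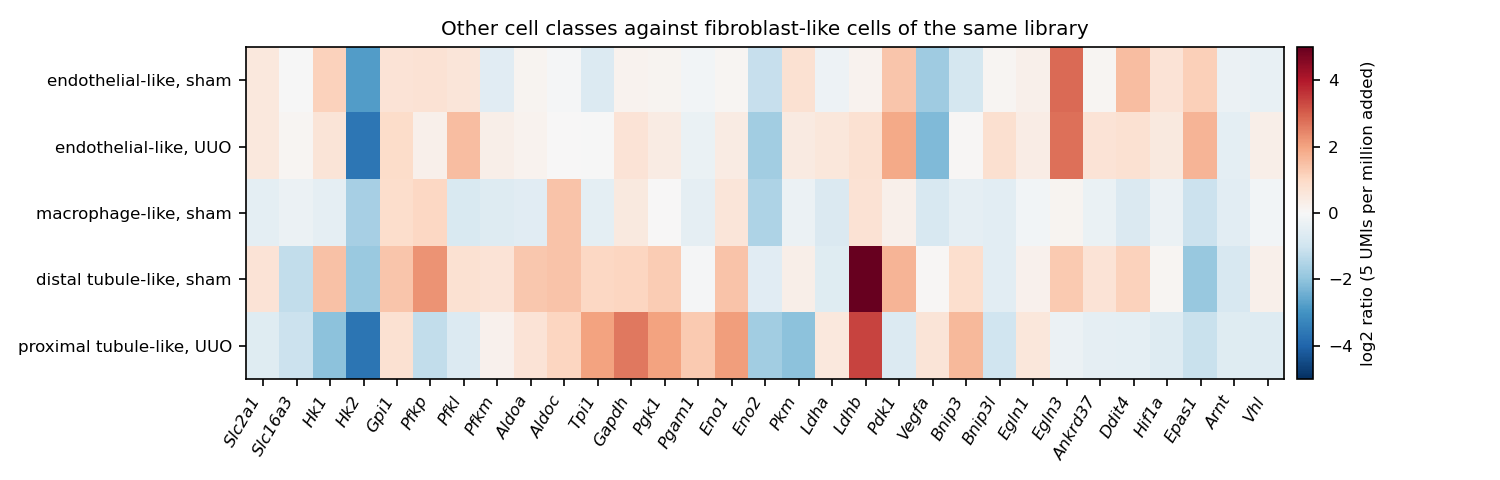
Log2 ratio of each gene in endothelial-, macrophage-, distal tubule- and proximal tubule-like cells over fibroblast-like cells of the same library, after adding 5 CPM (red higher, blue lower). Hk2 was lower in every class shown, and Ldhb reached a log2 ratio of 5 in distal tubule-like cells.

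In distal tubule-like cells 12 of 28 members at 10 CPM were at least 2-fold higher, beside 13.1% of all genes, and 3 were lower, beside 15.4%. Ldhb was the furthest apart, at 2525 CPM against 74.3 CPM (ratio 34, 32.4 to 35.7), and made up 86.2% of the pair with Ldha. Pfkp was at 101.5 CPM (ratio 5.91, 4.78 to 7.25), Hk1 at 79.6 CPM (ratio 3.14, 2.47 to 3.93) and Aldoa at 1259 CPM (ratio 2.54, 2.4 to 2.69). Gpi1, Tpi1, Gapdh, Pgk1, Eno1, Pdk1, Egln3 and Ddit4 were the other members past 2-fold. The 3 lower genes were Hk2 at 12.9 CPM, Slc16a3 at 3.98 CPM on 4 UMIs, and Epas1 at 18.9 CPM. Hk2 thus made up 14% of the hexokinase pair's UMIs in these cells and Epas1 22.1% of the pair with Hif1a, which stood at 66.7 CPM.

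In proximal tubule-like cells labelled UUO, 7 of 26 members were at least 2-fold higher, beside 16.5% of all genes, and 6 were lower, beside 27.1%. The middle of the pathway was high: Gapdh stood at 1835 CPM (ratio 6.27, 5.69 to 6.91), Eno1 at 731 CPM (ratio 4.3, 3.71 to 4.97), Pgk1 at 394 CPM (ratio 4.2, 3.43 to 5.11) and Tpi1 at 678 CPM (ratio 4.09, 3.51 to 4.74). These enzymes also serve the reverse pathway of glucose synthesis. Of the irreversible steps, hexokinase and pyruvate kinase were low: Hk1 and Hk2 had 1 UMI each of 362828, and Pkm was at 52.4 CPM against 234 CPM in fibroblast-like cells (ratio 0.224, 0.134 to 0.351). The phosphofructokinase genes Pfkl, Pfkp and Pfkm had 3, 5 and 5 UMIs, and Pfkm was not lower (13.8 against 11.3 CPM). Pgam1, Ldhb and Bnip3 were the other higher members, and Pfkp, on 5 UMIs, and Epas1 the other lower ones named. The remaining gene counted as lower, Eno2, had 0 UMIs; set at 3 counts (8.27 CPM) it was at least 1.4-fold lower than the 11.6 CPM of fibroblast-like cells, so a 2-fold difference was not shown. Slc16a3 had 0 UMIs too but was under 10 CPM in both classes.

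In both libraries Egln3, Pdk1 and Epas1 were at least 2-fold higher and Hk2 and Vegfa at least 2-fold lower in endothelial-like than in fibroblast-like cells. Of 27 members labelled sham, 5 were past 2-fold upwards, beside 11.8% of all genes, and 2 lower, beside 10.8%; in that labelled UUO 4 were higher, beside 13.8%, and 3 lower, beside 12.7%. Egln3, a HIF hydroxylase that is itself a HIF target, was at 41.8 CPM against 1.51 CPM in the library labelled sham (ratio 27.7, 19.4 to 39) and at 36 CPM against 1.08 CPM in that labelled UUO (ratio 33.3, 10.1 to 142, on 12 and 4 UMIs). Epas1 was at 199.9 CPM (ratio 2.38, 2.09 to 2.69) and 384 CPM (ratio 3.38, 2.75 to 4.13), and Pdk1 at 21.3 CPM (ratio 4.21, 2.75 to 6.21) and 42 CPM (ratio 5.55, 2.7 to 10.9). Hk2 had 6 UMIs and 1 UMI, against 60.6 and 92.5 CPM in fibroblast-like cells.

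Vegfa, whose receptors sit on endothelial cells, had 0 UMIs in endothelial-like cells labelled sham, at least 5.42-fold lower than in fibroblast-like cells when set at 3 counts (2.28 CPM), and 1 UMI in those labelled UUO (ratio 0.0941, 0.00236 to 0.535). Hk1 and Ddit4 were the other members higher in the library labelled sham (63.1 and 188 CPM), and Pfkl in that labelled UUO (56.9 CPM). The third gene counted as lower labelled UUO, Eno2, had 0 UMIs; set at 3 counts (8.99 CPM) it was at least 1.29-fold lower than the 11.6 CPM of fibroblast-like cells, so a 2-fold difference was not shown. Between the libraries, endothelial-like cells labelled UUO had 2 of 26 members at least 2-fold higher, beside 13.1% of all genes, and 1 lower, beside 7.88%. These were Ldhb (ratio 3.32, 2.47 to 4.39), Pfkm on 6 and 5 UMIs, and Hif1a at 104 and 48 CPM (ratio 0.461, 0.256 to 0.775). Epas1 was at 199.9 and 384 CPM (ratio 1.92, 1.54 to 2.38), so Hif1a lay lower and Epas1 higher in the library labelled UUO in both classes.

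Macrophage-like cells labelled sham were close to fibroblast-like cells in most members: of 24, 1 was at least 2-fold higher, beside 10.9% of all genes, and 2 lower, beside 18.6%. Pfkp was higher at 40.9 CPM (ratio 2.38, 1.8 to 3.09) and made up 64.1% of phosphofructokinase UMIs. Hk2 was lower at 15.9 CPM (ratio 0.263, 0.166 to 0.395) and Epas1 at 37.4 CPM (ratio 0.446, 0.334 to 0.582). The neuronal-type Eno2 had 0 UMIs. Pericyte-like cells, 23 labelled sham and 27 labelled UUO, are given as counts: Epas1 had 35 of 118094 UMIs and 57 of 142237, Hk2 1 and 0, and Epas1 made up 89.7% and 90.5% of the pair with Hif1a.

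Stromal cells were then clustered in each library with the members and the 60 other genes left out of the clustering, which gave 8 clusters of at least 40 cells labelled sham and 6 labelled UUO. Among these clusters the enzyme sum was highest in cluster 5 of the library labelled sham, at 3636 CPM (3587 to 3685). Cluster 5 held 590 cells and was led by Rxfp1, Igfbp3, Penk, Ramp3 and Cpxm2. The other 7 clusters lay between 1784 and 2831 CPM. Of 27 members at 10 CPM, 17 were at least 2-fold apart between their highest and lowest cluster, beside 57.3% of all genes, and in the library labelled UUO 13 of 27, beside 72.6%. The count labelled sham lay near its background, and that labelled UUO lay below its own. Clusters of 22 cells labelled sham and 24 labelled UUO, both led by Ren1 and Rgs5, were left out as too small. Their enzyme sums, 3657 CPM (3346 to 3989) and 4337 CPM (3987 to 4707), were not below that of cluster 5 labelled sham.

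**Figure D4:**
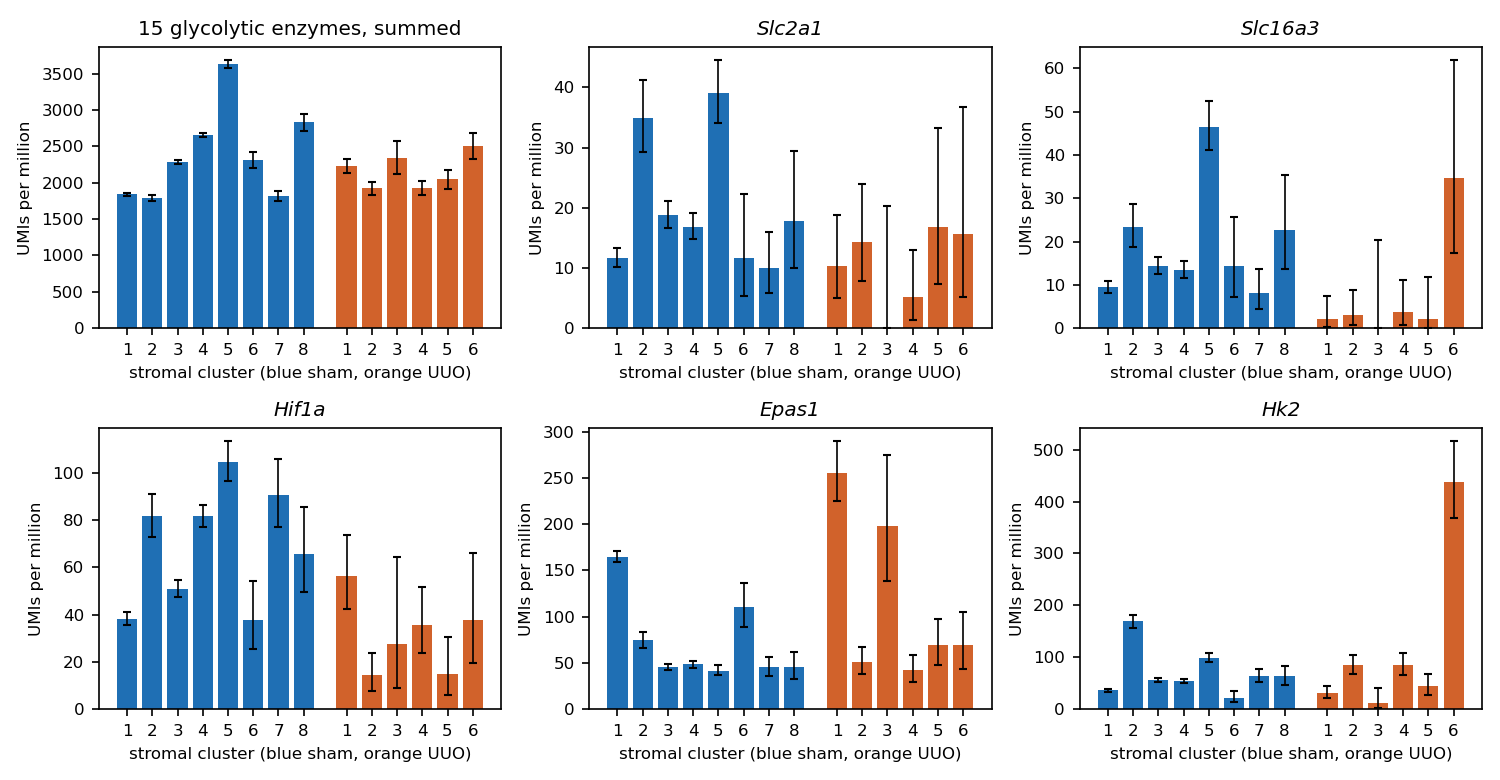
Level of the 15 enzymes summed and of Slc2a1, Slc16a3, Hif1a, Epas1 and Hk2 in the stromal clusters of at least 40 cells (8 labelled sham in blue, 6 labelled UUO in orange), in CPM with 95% Poisson intervals. Cluster 5 labelled sham was highest for the enzymes (3636), Slc2a1, Slc16a3 and Hif1a, while Hk2 reached 437 in cluster 6 labelled UUO. For Epas1 cluster 5 was the lowest labelled sham, with an interval that overlapped those of clusters 3, 4, 7 and 8.

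Cluster 5 was the highest of the 8 for 10 of the 17 members: both transporters, Pfkl, Gapdh, Pgk1, Eno1, Pkm, Ldha, Bnip3 and Hif1a. Slc2a1 was at 39.1 CPM there, Slc16a3 at 46.5 CPM and Pfkl at 76.7 CPM, with the lowest values in cluster 7 at 9.93, 8.18 and 14 CPM. Gapdh was at 699.6 CPM and Eno1 at 414 CPM, against 177 and 162 CPM in cluster 2. Pkm (643 CPM), Ldha (746 CPM), Bnip3 (68.1 CPM) and Hif1a (104.6 CPM) had their peak there too. Its median depth of 9945 UMIs lay within the range of clusters 1, 3 and 4 (8499 to 10407 UMIs), whose enzyme sums were 1842, 2289 and 2655 CPM. Not every peak stood clear of the next cluster. Intervals of cluster 5 overlapped those of cluster 8 for Gapdh (677 CPM), Pgk1 (194 CPM) and Ldha (707 CPM). They also overlapped those of cluster 2 for Slc2a1 (34.9 CPM) and of cluster 7 for Hif1a (90.5 CPM).

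Epas1 did not share the peak in cluster 5. It was highest in cluster 1 labelled sham, led by Serpina1b, Ptn, Clca3a1, Hpgd and Npr3, at 165 CPM, and lowest in cluster 5 at 41.6 CPM (ratio 3.96, 3.47 to 4.53). The interval in cluster 5 (36.6 to 47.3) overlapped those of clusters 3, 4, 7 and 8, at 45.7, 48.2, 45 and 45.3 CPM. In the library labelled UUO Epas1 was highest in cluster 1, led by Serpina1d and Serpina1b, at 256 CPM, and lowest in cluster 4 at 42 CPM (ratio 6.09, 4.22 to 9.04). There the interval of cluster 1 overlapped that of cluster 3 (198 CPM). That of cluster 4 overlapped those of clusters 2 (50.8 CPM), 5 (69.6 CPM) and 6 (69.2 CPM). The share of Epas1 in the pair with Hif1a was 81.2% in cluster 1 labelled sham and 28.5% in cluster 5, and 81.9% in cluster 1 labelled UUO. Both clusters numbered 1 carried Serpina1b among their 5 leading genes.

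Ldhb and Hk2 had other peaks. Ldhb was highest labelled sham in cluster 7 (177 cells led by Meg3, Sfrp4, C3, Ptx3 and Clec3b) at 129 CPM, where Ldha was lowest at 335 CPM, so Ldhb made up 27.9% of the pair there (24.8% to 31.1%) and 5 to 16.5% in the other 7 clusters. Hk2 was highest labelled sham in cluster 2 at 169 CPM and lowest in cluster 6 at 22.1 CPM, on 17 UMIs and at a median depth of 1600.5 UMIs. Cluster 2 was also shallow (median 2465 UMIs), with 8.26% mitochondrial UMIs, and the part of cell quality in these Hk2 levels was not tested. In the library labelled UUO Hk2 was at 437 CPM in cluster 6 (45 cells led by Car3, Foxf1, Moxd1, Cyp2e1 and Tnc) and between 11 and 85.2 CPM in the other 5. The value of 11 CPM rested on 2 UMIs in cluster 3, which had a median depth of 1228 UMIs and the tubule marker Calb1 among its leading genes.

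Hk2 followed the immediate early and heat shock genes, a list of 14 such as Fos, Jun and Hspa1a that dissociation of tissue can induce. In quartiles of fibroblast-like cells by the share of their UMIs from that list, Hk2 was at 16.6, 41.5, 77.6 and 119 CPM in the library labelled sham, and at 3.89, 11.8, 113 and 191 CPM in that labelled UUO. Median shares in the quartiles were 0.357%, 0.842%, 1.6% and 2.75% labelled sham. Between top and bottom quartile 2 of 25 members labelled sham were at least 2-fold higher, beside 1.87% of all genes, and none lower, beside 0.0928%; labelled UUO 2 were higher, beside 4.92%, and 1 lower, beside 8.64%. Hk2 was past 2-fold in both libraries, Ddit4 labelled sham, Bnip3 labelled UUO, and Epas1 was the lower gene labelled UUO.

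**Figure D5:**
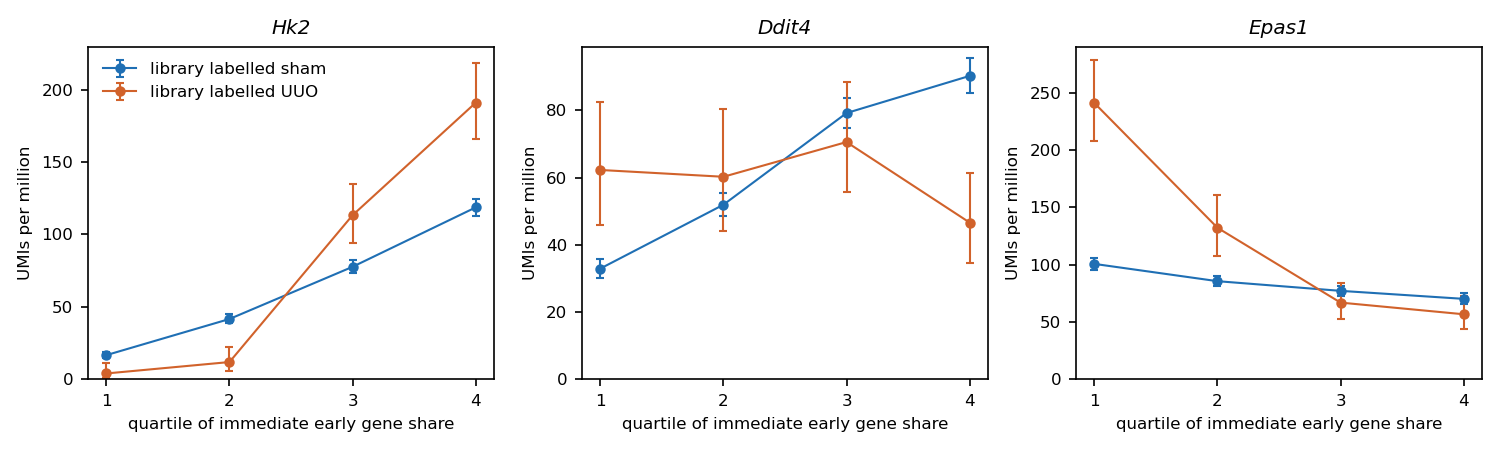
Level of Hk2, Ddit4 and Epas1 in quartiles of fibroblast-like cells by the share of UMIs from 14 immediate early and heat shock genes, in CPM with 95% Poisson intervals, for the libraries labelled sham (blue) and UUO (orange). Hk2 rose with the quartile in both libraries, from 16.6 to 119 and from 3.89 to 191, and Epas1 fell in both.

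The Hk2 pattern was also seen within stromal clusters. With each cluster split at its median share, Hk2 was higher in the upper part in 8 of 8 clusters labelled sham, with ratios of 1.29 to 6.99 and an interval above 1 in 7. Labelled UUO it was higher in 5 of 6, with an interval above 1 in 3. Of those 5, cluster 3 held only 0 and 2 Hk2 UMIs in its lower and upper part, and cluster 5 held 6 and 15. The exception was cluster 6 labelled UUO, where Hk2 was at 465 and 411 CPM. Ddit4, which went from 32.9 to 90.2 CPM over the quartiles labelled sham, was higher in the upper part in 7 of 8 clusters labelled sham and 3 of 6 labelled UUO. Epas1, from 101 to 70.1 CPM labelled sham and 241 to 56.7 CPM labelled UUO, was lower in the upper part in 5 of 8 clusters and 3 of 6. The enzyme sum was nearly level over the quartiles, from 2312 to 2305 CPM labelled sham and 2212 to 2023 CPM labelled UUO.

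Cells labelled sham with more UMIs of the 7 hypoxia-induced genes held more enzyme RNA, and the difference was smaller without cluster 5. After thinning 6981 cells labelled sham to 2000 UMIs each, with 722 shallower cells left out, enzymes stood at 2120 CPM (2087 to 2153) in cells with 0 such UMIs, 2229 CPM (2186 to 2274) with 1 and 2534 CPM (2464 to 2606) with 2 or more. Without cluster 5 the values were 2042 CPM (2009 to 2076), 2108 CPM (2063 to 2153) and 2129 CPM (2061 to 2199), with overlapping intervals. Cluster 5 made up 7.45%, 8.83% and 10.8% of the cells in the 3 groups. Leaving it out took the enzyme UMIs from 16040 to 14300 with 0 such UMIs, and from 4951 to 3709 with 2 or more. Whether its share of cells or a relation inside cluster 5 made the difference was not tested. Bnip3l gave 61.7% of the hypoxia-induced UMIs labelled sham and Ddit4 18.3%, so this split mostly reads those 2 genes. In the library labelled UUO, with 476 cells of sufficient depth, the 3 values were 2072, 2029 and 2279 CPM, with overlapping intervals.

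Proliferating cells labelled sham, 65 fibroblast-like cells with at least 3 of 6 cell-cycle markers, had no member 2-fold apart from the other 7638 cells among the 25 at 10 CPM, beside 4.66% of all genes higher and 2.07% lower. Gapdh was at 711 against 447 CPM (ratio 1.59, 1.47 to 1.73) and Ldhb at 42.3 against 74.7 CPM (ratio 0.565, 0.396 to 0.784). These cells were deeper, with a median of 13656 UMIs against 8017. In the library labelled UUO 2 cells met that criterion.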

How the data were processed

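Droplet-based 3′ libraries of kidney cells, 1 per group, were analysed from matrices of expected counts, which the authors deposited as estimated UMI counts per gene and cell made with alevin (Salmon 0.13.1) on mm10, per the submitters' processing notes. The sources used here do not give how barcodes were chosen. Of the nonzero values 92.3% and 91.2% were whole (tolerance 1e-06), and counts were summed as deposited, so that ambiguous reads stay shared between genes. No column was left unmapped. The members, lists and tests were chosen with earlier results of these data known. All 32 members are named, with the 3 largest and 3 smallest log2 ratios of the 60-gene pathway list and the 5 leading genes of a cluster, except that 1 result of that list is not reported here. Of 53698 gene entries, 52806 were found in GENCODE M21.

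Barcodes were kept with at least 500 UMIs, 300 genes and at most 20% mitochondrial UMIs (10656 and 1052). Doublets were scored against 2 simulated doublets per cell in 30 components and removed at 0.8% per 1000 cells (908 and 9). A cell joined a class when at least 3 markers and 50 marker UMIs per 10000 fitted that class and no other, a limit set after seeing the marker distributions. Fibroblast-like cells numbered 642 and 59 within 50 to 60 marker UMIs per 10000, just above that limit. Counts were summed over a class and scaled to a common total (CPM). Log2 ratios have 5 CPM added to both sides, and a gene was counted when it reached 10 CPM on either side and was at least 2-fold apart. Intervals are 95%: exact Poisson for a level, conditional binomial for a ratio and Clopper-Pearson for a share. UMIs and barcodes are not replicates, so no p-value was computed. A count of 0 was set at 3 counts for bounds. Classes under 30 cells were not compared.

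Stromal cells were clustered by Leiden (resolution 0.5, 20 neighbours) on 2000 variable genes without members, pathway list, mitochondrial and ribosomal genes. Clusters of at least 40 cells are described. The code was tested on simulated data. Python 3.11.15, numpy 2.4.6, scipy 1.17.1, scikit-learn 1.9.0, leidenalg 0.10.2 and matplotlib 3.10.9 were used.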

Additional observations from a re-analysis of the deposited data

How the results depend on the processing

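Fibroblast-like cells were compared under 18 alternative settings, of which 4 were chosen after seeing the data: a limit of 30 marker UMIs per 10000, removal of stromal cluster 2 of the library labelled sham, subtraction of the proximal tubule share, and cells of 4000 to 10000 UMIs. No value called 2-fold reversed, 20 of 26 members kept their sign under all 18, and 65 of 468 values moved by more than their interval. The 2 members higher in the library labelled UUO became 0 with 20 CPM added, 1 with all retained cells, 0 in cells with Xist UMIs and 1 in cells of 4000 to 10000 UMIs. It became 3, with Pfkp past 2-fold, with 1 CPM added, after dividing by the median ratio of all genes, in cells with Y-linked UMIs, with whole values only and without stromal cluster 2 of the library labelled sham. With the proximal tubule share subtracted it stayed at 2, as Vegfa and Pfkp in place of Vegfa and Ldhb. The 1 lower member became 2 with 1 CPM added, 0 with 20 CPM added, 0 after dividing by the median ratio of all genes, 2 in cells with Xist UMIs, 2 in cells with Y-linked UMIs, 0 without stromal cluster 2 of the library labelled sham and 0 in cells of 4000 to 10000 UMIs. With 20 CPM added, members 2-fold apart in endothelial-like cells labelled sham went from 7 to 4, and in macrophage-like cells from 3 to 1. The latter count was 5 without mitochondrial, ribosomal protein and haemoglobin genes and 1 without doublet removal. With the highest set over the lowest of 4 quartiles of stromal cells (fibroblast- and pericyte-like), whichever they were, in place of clusters, the members 2-fold apart numbered, labelled sham, 1 (mitochondrial share), 2 (depth) and 2 (immediate early genes) in place of 17, and labelled UUO 3, 3 and 7 in place of 13. Beyond the effect of the larger added constant, the cause was not tested. No paired analysis was possible because each group had 1 library and no test was made. Differences between animals, operations and library preparation cannot be told apart with 1 library each, and members under 10 CPM, Epo included, are limited by depth.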
